A study of Drosophila melanogaster with 17 samples.

Results

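Micrococcal nuclease (MNase) digestion of purified, histone-free DNA of the Drosophila melanogaster line BG3-c2 was set against digestion of chromatin of the same line, both read on nanopore devices. The libraries were taken by their group labels and number 3 of the 17 in the series, 1 of naked DNA and 2 of chromatin. BG3-c2 is a cell line from the larval L3 central nervous system, grown at 26°C. The naked sample is total genomic DNA without histones, purified with a Qiagen Blood & Tissue kit and then cut with MNase, and its labels give no digestion time. The chromatin samples are nuclei of untreated BG3-c2 cells (no RNAi), digested for 20 min at 37°C. Chromatin of BG3-c2 digested at 3 strengths of MNase (low, medium, high; 1 nanopore library each) serves as further chromatin beside the results. All libraries come from 1 cultured line, nothing in the labels says that the chromatin replicates were separate cultures, and whole-cell DNA was compared with DNA from nuclei. The presence of histones and the way the DNA was prepared therefore cannot be told apart.

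MNase is an endo-exonuclease that cuts the DNA linking nucleosomes and is slowed by the histone octamer, so digested chromatin runs as a ladder of multiples of the nucleosome repeat. The enzyme also prefers some base sequences to others, most of all A and T over G and C. A digest of naked DNA shows that preference, the copy number of each region in the line and how well reads can be placed, without nucleosomes. Long nanopore reads cover whole oligonucleosomal fragments, so both cuts that made a fragment are seen in 1 molecule.

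Depth differed widely. The naked DNA library held 2992593 aligned fragments, against 630936 and 107571 in chromatin replicates 1 and 2, and 355426, 437784 and 327053 in the low, medium and high digests. Chromosome 4, the X and the large autosomal arms (2L, 2R, 3L, 3R), called the arms here, held 83.0% of naked fragments, against 82.2% and 84.7% of chromatin fragments. Replicate 2 is the shallowest, with a median of 7 fragments per 10 kb window, against 43 in replicate 1 and 209 in naked DNA. Its table gives no strand and no score per fragment.

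Naked DNA gave shorter fragments than chromatin and a single broad hump in place of a ladder. The median fragment length was 424 bp in naked DNA (95% interval of the median 424 to 425), against 588 bp (587 to 588) and 632 bp (628 to 636) in chromatin replicates 1 and 2, a difference of -186 bp from a chromatin mean of 610 ± 31.1 bp (SD, n = 2). Fragments of up to 250 bp made up 13.6% of naked DNA (Wilson 95% interval 13.5 to 13.6), against 2.37% (2.33 to 2.41) and 5.57% (5.44 to 5.71) of chromatin. Fragments over 1000 bp made up 6.99% of naked DNA, against 17.9% and 21.7% of chromatin. With 1 library against 2 there are 3 ways to arrange the labels, and no p-value is given for any value that rests on whole libraries. The intervals cover counting error only. The length itself also moved with the degree of digestion. The median was 595, 460 and 403 bp in the low, medium and high chromatin digests, and fragments of up to 250 bp made up 4.69%, 8.03% and 12.2%, so the naked library lay inside the chromatin range for length and just above it for short fragments.

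The ladder separated the digests where length did not. After division of the length histogram by its broad trend, naked DNA had 1 maximum above the trend, at 272 bp, where the histogram reached 1.32 of the trend. Every later maximum found in naked DNA stayed below the trend, between 0.933 and 0.966 of it. Chromatin replicate 1 had maxima at 375, 550, 741, 926 and 1104 bp, and replicate 2 at 365, 558, 731, 931 and 1130 bp, each above its trend. The high chromatin digest also stayed below its trend from its maximum at 756 bp on. Past the hump, over 450 to 1000 bp, the root mean square departure from the trend was 5.91% in naked DNA, against 18.3% and 11.2% in chromatin replicates 1 and 2 and 8.79%, 10.9% and 13.7% in the low, medium and high digests. Naked DNA was thus below all 5 chromatin libraries. Over the wider range of 250 to 1000 bp, which takes in the naked hump, the departure was 12.1% in naked DNA, against 27.9% and 18.1% in chromatin and 14.6% to 19.9% in the titration. The range from 450 bp was chosen after the histograms had been seen. A maximum at 256 to 280 bp, below the dinucleosome maximum at 390 to 409 bp, also stood in the 3 titration libraries, at 1.20 to 1.33 of the trend. It was not found at these lengths in the chromatin replicates. Their maxima below the dinucleosome lay at 196 bp in replicate 1, at 0.795 of the trend, and at 213 bp in replicate 2, at 1.17 of it.

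**Figure D1:**
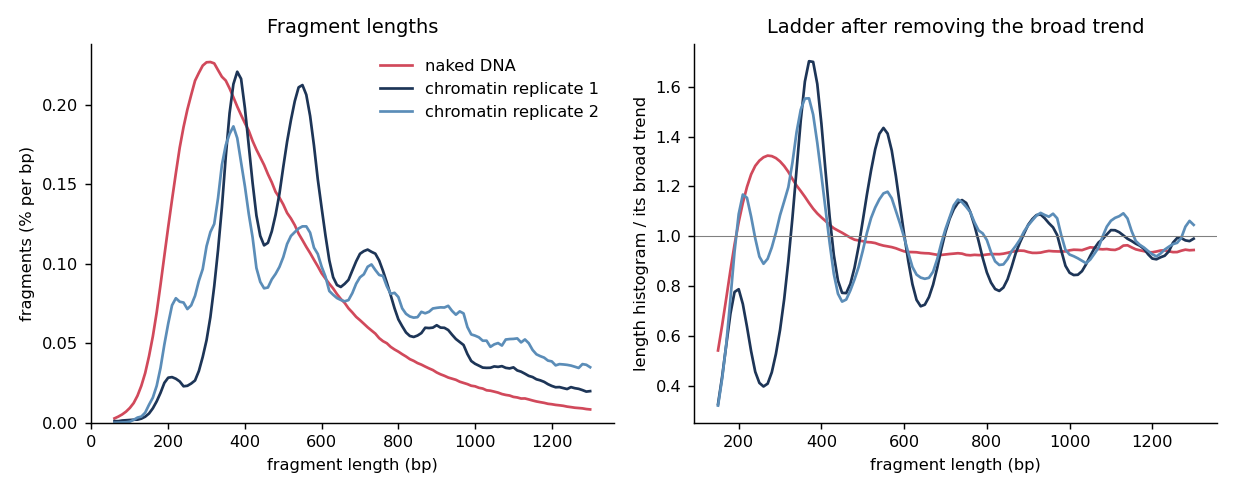
Fragment length in bp against the percent of fragments per bp (left) and against the ratio of the length histogram to its broad trend (right), for naked DNA and the 2 chromatin replicates. Naked DNA has 1 hump, highest near 307 bp in the histogram and at 272 bp in the ratio. It has no later maximum above its trend, while the chromatin lines rise above theirs near 370, 550 and 740 bp.

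The strength of the ladder was also taken by region. On the heterochromatic scaffolds of chromosomes 2, 3 and X the departure from the trend over 250 to 1000 bp was 12.2% in naked DNA, against 35.9% and 25.5% in chromatin replicates 1 and 2. On arm 2L it was 12.2% in naked DNA, against 29.0% and 20.0% in chromatin, and on X it was 12.0% in naked DNA, against 25.3% and 16.7% in chromatin. In both chromatin replicates the heterochromatic scaffolds therefore lay above the arms 2L and X, and X lay lowest of these regions. On chromosome 4 the departure was 14.0% in naked DNA, the highest of its arms, against 26.9% and 21.3% in chromatin. Chromosome 4, a small and repeat-rich chromosome, had shorter fragments than the other arms in both kinds of digest. Its median was 400 bp in naked DNA, against 567 and 535 bp in chromatin, while that of arm 2L was 432 bp in naked DNA, against 589 and 644 bp in chromatin. The departure is larger where few fragments were counted, as on the small YHet scaffolds, where it was 19.0% from 2613 fragments in naked DNA, against 47.9% from 601 and 65.0% from 70 in chromatin replicates 1 and 2. The heterochromatic scaffolds of 2, 3 and X held 149407 fragments in naked DNA, against 36594 and 4725 in chromatin, and chromosome 4 held 45427, against 8620 and 1209. The part of this depth in the differences between regions was not tested. These regions share their library, so they describe the libraries and are not replicates.

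Cut positions recurred between the digests, at the same base and less strongly at nearby bases. The part of the sequence preference of the nuclease in this was not tested. The measure was the number of pairs of fragment ends from 2 libraries at the same base over the mean number per base at distances of 100 to 300 bp, which is 1 where ends fall independently. Left ends of naked DNA coincided with left ends of chromatin 1.38 times as often (95% Poisson interval 1.36 to 1.40, 18090 pairs) for replicate 1 and 1.51 times (1.46 to 1.56, 3380 pairs) for replicate 2. Naked DNA with itself gave 3.06, but with a range of 1.66 to 11.7 over the 6 arms, the highest on chromosome 4. Crowded places held much of that value for left ends. Without 679 of the 120381 bins of 1 kb that held over 5 times the median left ends in any library other than replicate 2, naked DNA with itself gave 1.75 (1.73 to 1.76), naked DNA with chromatin replicates 1 and 2 gave 1.29 (1.27 to 1.31) and 1.32 (1.27 to 1.37), and the chromatin replicates with each other gave 1.61 (1.49 to 1.74). On each of the 5 large arms the naked-to-chromatin ratio without those bins was between 1.27 and 1.42. The excess was not confined to the same base. With left and right ends summed, naked DNA with replicate 1 gave 1.33 at distance 0, 1.22 at 1 to 5 bp and 1.17 at 6 to 20 bp. With replicate 2 it gave 1.40, 1.23 and 1.18, so the ratio also holds crowding of ends wider than 1 base. For left ends without those bins, coincidence with naked DNA was 1.24 to 1.26 for the 3 titration libraries. It was 1.64 to 1.72 for the titration libraries with each other. Between the 2 sets of chromatin it was lower, at 1.33 to 1.37 for replicate 1 with the titration libraries and 1.40 to 1.48 for replicate 2 with them. Among pairs of different libraries, the highest values were thus those within a set of chromatin libraries. When ends of 1 strand were paired within a library without the bins, read starts coincided more often than read ends. For left and right ends of naked DNA the ratios were 2.44 and 2.67 at read starts, against 1.68 and 1.99 at read ends. In replicate 1 they were 2.66 and 3.92, against 1.86 and 1.99. The cause was not tested. Right ends, which did not set the crowded bins, changed less when those bins were left out. Naked DNA with itself gave 2.05 for right ends with the bins and 1.95 without them. For right ends without the bins, naked DNA gave 1.37 (1.35 to 1.39) with replicate 1 and 1.48 (1.43 to 1.53) with replicate 2. Replicate 1 with the titration libraries gave 1.37 to 1.42, with intervals that overlap that of naked DNA with replicate 1. The 5 large arms differed more for right ends than for left ends. Naked DNA ran from 1.27 to 1.66 over them with replicate 1, from 1.28 to 2.19 with replicate 2 and from 1.75 to 3.37 with itself. The Poisson intervals do not cover that spread between arms.

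Beyond single bases, ends in chromatin were spaced in steps and ends in naked DNA were not. In the pairing of chromatin replicates 1 and 2, pairs of ends averaged 1.00 of the background level at distances of 360 to 390 bp and 0.999 at 550 to 580 bp, against 0.959 at 270 to 300 bp and 0.962 at 450 to 480 bp. Naked DNA with itself gave 0.991 and 0.988 at the first pair of distances and 0.989 and 0.988 at the second. The swing, taken as the level at the first pair of distances over that at the second, was 0.0766% in naked DNA, with -0.528% to 0.646% over the 5 large arms, against 4.12% (0.734% to 5.99%) between the chromatin replicates and 4.78% (3.39% to 5.41%) within replicate 1. The distances were picked on the chromatin replicates, whose swing is therefore a description. In the 3 pairings among the titration libraries the swing was 1.13%, 1.39% and 1.66%, above 0 on all 5 large arms in each. Replicate 1 paired with the low, medium and high digests gave 1.33%, 1.89% and 1.96%, again above 0 on all 5, and the shallow replicate 2 gave 0.626%, 1.02% and 0.324%, above 0 on 4, 4 and 3 of the 5. In naked DNA paired with chromatin replicates 1 and 2 it was -0.882% and -0.569%, and in naked DNA paired with the titration libraries it lay between -0.295% and -0.0152%. With chromatin replicates 1 and 2 it was above 0 on 0 and 1 of the 5 large arms.

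**Figure D2:**
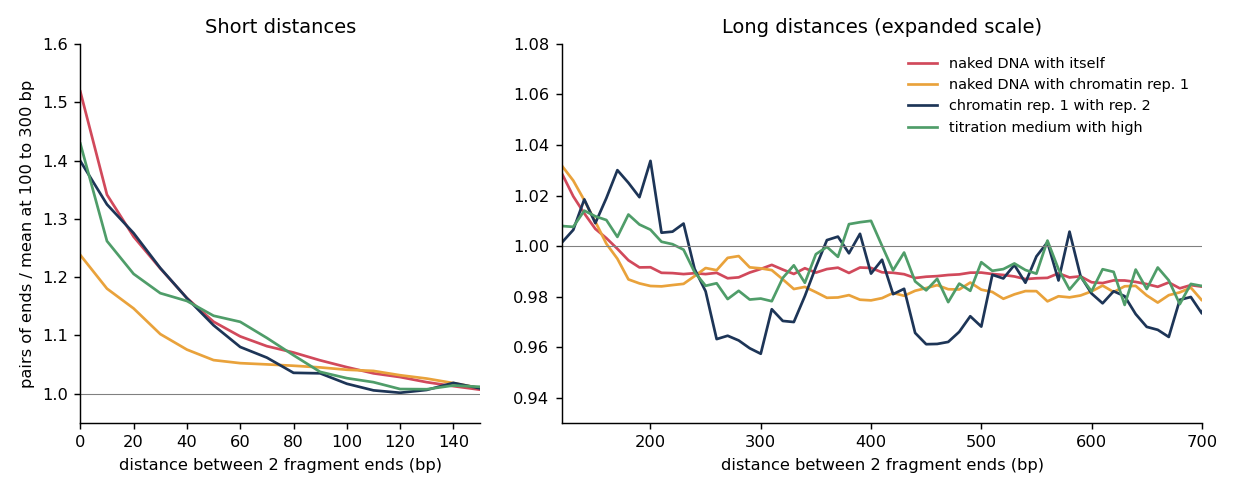
Pairs of fragment ends at a given distance in bp, over the mean at 100 to 300 bp, at short distances (left) and at long distances on an expanded scale (right), smoothed over 11 bp, without the crowded 1 kb bins. All 4 lines fall from short distances, and at long distances the chromatin line swings by 4.12% between 0.96 and 1.00 of the background level while the naked line lies between 0.983 and 0.993 from 200 to 700 bp.

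Single positions where many naked fragments ended were rare. Of 4783091 arm positions with at least 1 naked end, 1348 had 5 or more and 367 had 10 or more. They were unevenly spread over the arms. Chromosome 4 held 508 of the 1348 and 185 of the 367, with 90612 of the 4965066 naked ends, while 2R held 19 and 2 with 881964 ends. On chromosome 4, 98.0% of the 508 lay in crowded bins. Crowded 1 kb bins held 83.8% of the 1348, and 78.7% of them had ends of 1 kind only, left or right. Whether these ends mark repeated cuts or edges of crowded reads was not tested. Chromatin ends lay within 2 bp of the 1348 positions 2.09 times as often as 50 to 150 bp away in replicate 1 (95% Poisson interval 1.97 to 2.21) and 2.91 times in replicate 2 (2.55 to 3.30). At the 219 positions outside crowded bins, the ratio was 3.28 (2.99 to 3.59) in replicate 1 and 3.68 (2.96 to 4.51) in replicate 2, and 2.46 to 3.23 in the titration libraries. A chromatin end near several of these positions was counted once for each, so the Poisson intervals can be too narrow. The 1348 positions were chosen on naked DNA alone. Replicate 1 and the titration libraries helped to set the crowded bins that the 219 lie outside. All libraries share mappability, whose part in the shared positions was not tested.

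The 5 positions with the most naked ends, in release 5 coordinates counted from 1, all had left ends only. Position 4:1041988 had 155 naked ends, and within 2 bp of it lay 328 naked ends, against 2 and 1 ends in chromatin replicates 1 and 2. Position 3L:23605357 had 45 naked ends, and no end of either chromatin replicate within 2 bp, but 20, 8 and 3 ends in the low, medium and high digests. Positions X:21834818, 3L:15063031 and 2R:14866097 had 29, 27 and 22 naked ends. Around 3L:15063031 chromatin replicate 1 had 14 ends and replicate 2 had 2, beside 40 in naked DNA, so it was the only one of the 5 with more than 5 ends of a chromatin replicate within 2 bp. The first of the 5 lies at the edge of a pile-up described further on, and the next pair lie inside others. No sequence is shown for these positions, since a genome of this build was not used here.

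Coverage followed the same map in naked DNA and in chromatin. Across 2404 windows of 50 kb, Pearson's r of log2 coverage was 0.943 between naked DNA and chromatin replicate 1 and 0.823 between naked DNA and replicate 2, against 0.816 between the chromatin replicates themselves. These r describe windows of the same genome, which share copy number and mappability and are not independent, and the depth of replicate 2 limits the values that involve it. Subtraction of naked coverage removed 94.1% of the variance beyond counting error in replicate 1 and 86.8% in replicate 2. On the 4 large autosomal arms alone, where the step between X and autosomes plays no part, it removed 86.5% and 75%. In the titration libraries it removed 90.3% to 92.5% over all arms, and 75.3%, 78.1% and 79.7% on the 4 large autosomal arms in the low, medium and high digests.

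The X chromosome and chromosome 4 stood apart in all libraries. The median 50 kb window on X had 0.528 of the autosomal median in naked DNA, against 0.507 and 0.525 in chromatin replicates 1 and 2 and 0.504, 0.500 and 0.504 in the low, medium and high digests. The difference of 0.0123 between naked DNA and the chromatin mean was smaller than the SD of the chromatin replicates, 0.0129 (n = 2). Chromosome 4 had 1.49 of the autosomal median in naked DNA, against 1.41 and 1.13 in the chromatin replicates and 1.80, 1.66 and 1.57 in the low, medium and high digests, so naked DNA lay between the chromatin libraries. The 4 large autosomal arms lay between 0.957 and 1.05 in each of the 6 libraries.

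As a share of all fragments, mitochondrial DNA, which carries no nucleosomes, made up 0.117% of naked fragments (Wilson 95% interval 0.113 to 0.121), against 0.143% (0.134 to 0.153) and 0.136% (0.115 to 0.160) of chromatin fragments. It ranged from 0.0712% to 0.375% in the titration, so naked DNA again lay inside the chromatin range. Unplaced scaffolds (Uextra) took 7.26% of naked fragments, against 6.28% and 6.20% of chromatin fragments and 6.35% to 8.32% of titration fragments. The heterochromatic scaffolds of 2, 3 and X took 4.99% of naked fragments, against 5.80% and 4.39% of chromatin fragments. These 3 shares lay inside the range of the 5 chromatin libraries, and those of some arms did not. Arm 2L took 16.2% of naked fragments, against 16.8% and 16.9% in chromatin replicates 1 and 2 and 17.0% to 17.4% in the titration. Arm 3L took 21.2% of naked fragments, against 20.6% and 20.7% in the chromatin replicates and 19.9% to 20.0% in the titration. Naked DNA was thus below all 5 chromatin libraries on 2L and above them on 3L, where the longest gain described next lies. On 3R it was lowest by a narrow margin, with 19.78%, against 19.85% and 20.99% in the chromatin replicates and 19.84% to 19.94% in the titration.

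Long runs of raised or lowered coverage were found in naked DNA, and of those described here all but the run on chromosome 4 had medians past the same limit in every chromatin library. Runs were at least 10 adjacent 50 kb windows beyond 0.3 log2 units from the autosomal median of naked DNA. The longest gain was 3L:1-2600000, from the tip of the arm, with 52 windows and a median of 2.68 times the autosomal median in naked DNA, against 2.57 and 2.48 times in chromatin replicates 1 and 2 and 2.31, 2.33 and 2.31 times in the low, medium and high digests. The second gain covered chromosome 4 (4:50001-1300000, 25 windows), with 1.49 times in naked DNA, against 1.43 and 1.15 times in chromatin. In replicate 1 24 of its 25 windows were past the limit, and in replicate 2 5 were. The 3 longest losses were all on X, at X:16350001-21500000, X:6950001-12050000 and X:12150001-16150000, with 0.511, 0.525 and 0.525 times in naked DNA, against 0.485 to 0.518 times in chromatin. Of the runs, 1 loss was autosomal: 2L:8550001-9300000, singled out after its values were seen, had 0.515 times in naked DNA, against 0.566 and 0.556 times in the chromatin replicates and 0.737, 0.722 and 0.671 times in the low, medium and high digests.

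**Figure D3:**
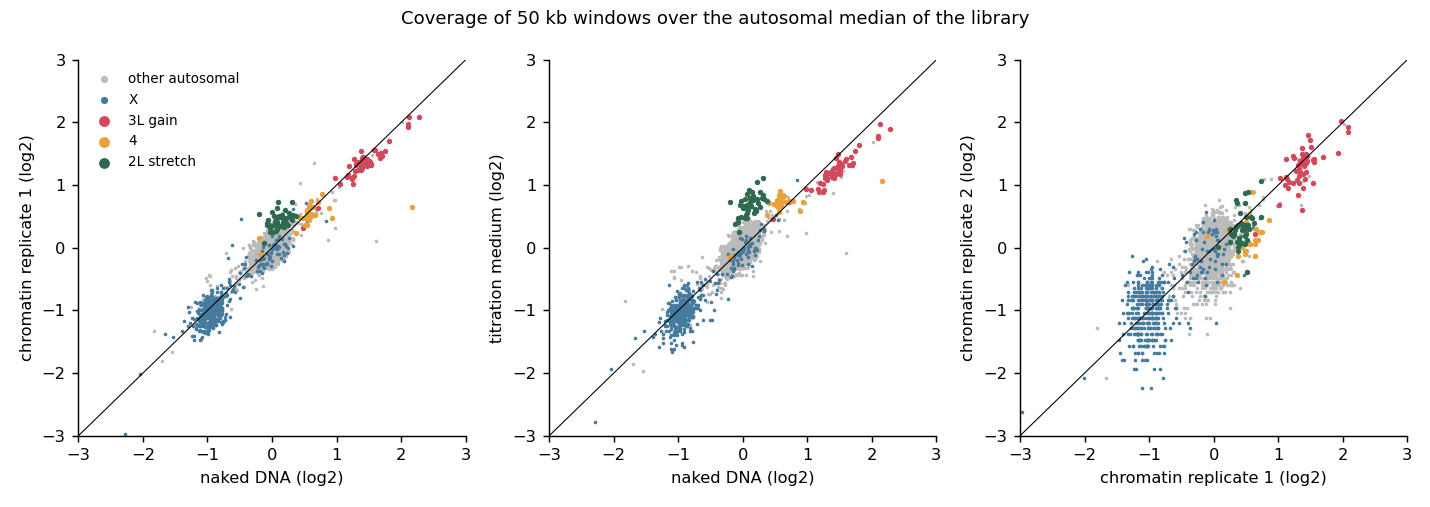
Log2 coverage of 50 kb windows over the autosomal median of each library, naked DNA against chromatin replicate 1 (left), naked DNA against the medium digest (middle) and chromatin replicate 1 against replicate 2 (right), with the line of equal values. X windows sit near -1 in all panels, the median of the 3L gain is 1.42 in naked DNA, 1.36 and 1.31 in chromatin replicates 1 and 2 and 1.22 in the medium digest, and the 2L stretch at 13600001 to 15600000 lies above the line in both panels with naked DNA.

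Few windows differed between naked DNA and chromatin beyond a spread pooled over windows. In limma with voom weights across 2404 windows of 50 kb, 12 had a Benjamini-Hochberg adjusted p under 0.05, which is 0.499% of those tested. Of these, 5 (0.208%) were higher in naked DNA and 7 (0.291%) were lower. The fit rests on 1 residual degree of freedom and takes the naked library to vary like the chromatin ones. Its prior degrees of freedom were infinite, so each window was tested with the pooled spread and not with its own. The adjusted p-values therefore do not measure the spread of the replicates in a window. Counts were also simulated, with a spread set in advance and not fitted to the data. Of simulated windows changed by 1 log2 unit the fit recovered 93%. It recovered 38% of those changed by 0.5, so small differences could go uncalled. It also made 9 false calls among the 2404 simulated windows, close to the 12 calls of the data, so a call near the threshold carries little weight. In limma-trend 2 windows were called, the first pair named next, and none of the 7 lower ones.

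The 5 higher windows each held a place about 1 kb wide where naked fragments were crowded. Window 4:1000001-1050000 had 1917 RPM (fragments per 1000000 fragments of the library on the arms) in naked DNA, against 675 and 538 in chromatin replicates 1 and 2, a log2 difference of 1.61 (SE 0.16, limma adjusted p = 6.83e-21), and 67.0% of its naked fragments lay in 1 bin of 1 kb. Window 2L:600001-650000 had 1303 RPM in naked DNA, against 465 and 439 in chromatin, a log2 difference of 1.50 (SE 0.15, limma adjusted p = 2.9e-19), with 52.6% of them in 1 bin. Windows 3L:23600001-23650000, 4:1150001-1200000 and 3R:27750001-27800000 had log2 differences of 0.82, 0.59 and 0.58. Without bins crowded in naked DNA or replicate 1, the log2 differences of the 5 windows, taken from the RPM, were 0.26 and 0.0013 for the first pair and 0.14, 0.31 and -0.36 for the others. In limma without the bins crowded in any library but replicate 2 none of the 5 was called.

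Of the 7 lower windows, 4 had no bin crowded in naked DNA or replicate 1 and 3 had. Window X:18500001-18550000 had 307 RPM in naked DNA, against 592 and 318 in chromatin replicates 1 and 2 (log2 difference -0.77, SE 0.15, limma adjusted p = 0.000255), and 64.2% of its replicate 1 fragments lay in 1 bin. In that bin, X:18501001-18502000, all 197 fragments of replicate 1 were on the plus strand. Window 3R:950001-1000000 had 670 RPM in naked DNA, against 1103 and 702 in chromatin (log2 difference -0.56), with 49% of the replicate 1 fragments in 1 bin, and window 2L:22400001-22450000 was the other with crowded bins. Without those bins the log2 differences of the 3 were -0.32, -0.058 and 0.044. Against the titration libraries, X:18500001-18550000 and 3R:950001-1000000 were higher in naked DNA, by 0.63 and 0.33 log2 units.

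The 4 lower windows with no bin crowded in naked DNA or replicate 1 all lay in 2 Mb of arm 2L. Window 2L:13650001-13700000 had 374 RPM in naked DNA, against 623 and 560 in chromatin replicates 1 and 2 and 640, 712 and 732 in the low, medium and high digests (log2 difference -0.69, SE 0.16, limma adjusted p = 0.00485). Windows 2L:15100001-15150000, 2L:15200001-15250000 and 2L:14000001-14050000 had log2 differences of -0.59, -0.57 and -0.51. In limma-trend all 4 lost their call (adjusted p = 0.9998). With voom weights these 4 were the only windows called when crowded bins were left out (0.166% of those tested; 116 had an unadjusted p under 0.05). Against all 5 chromatin libraries together 37 windows (1.54%) were called, 3 higher (0.125%) and 34 lower (1.41%) in naked DNA. All 34 were on 2L and 31 lay within 2L:13600001-15600000. Without crowded bins the same fit called 13, all lower, of which 11 lay within it. Against the titration alone 155 windows (6.45%) were called, 66 higher (2.75%) and 89 lower (3.7%), and the lower ones included all 40 windows of that stretch.

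Coverage over 2L:13600001-15600000, a stretch taken from the first to the last of these 31 calls and therefore described without a test, was near the autosomal level in naked DNA and raised in chromatin. The median of its 40 windows was 1.07 times the autosomal median in naked DNA, against 1.36 and 1.23 times in chromatin replicates 1 and 2 and 1.6, 1.61 and 1.62 times in the low, medium and high digests. Naked DNA was below all 5 chromatin libraries in 33 of the 40 windows, against 8.28% of all 2404 windows. The stretch was chosen on these same libraries, so the choice favoured this count, which is no separate support. In the 40 windows before the stretch, the medians were 1.01 times in naked DNA, against 1.06 and 1.03 times in the chromatin replicates, and in the 40 windows after it 1.02 times in naked DNA, against 1.11 and 1.01 times. The order of the libraries over the stretch was naked DNA, the chromatin replicates and then the titration. In the autosomal loss at 2L:8550001-9300000 the median was likewise lowest in naked DNA and highest in the titration. Whether the cells differed in copy number between samples was not tested.

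**Figure D4:**
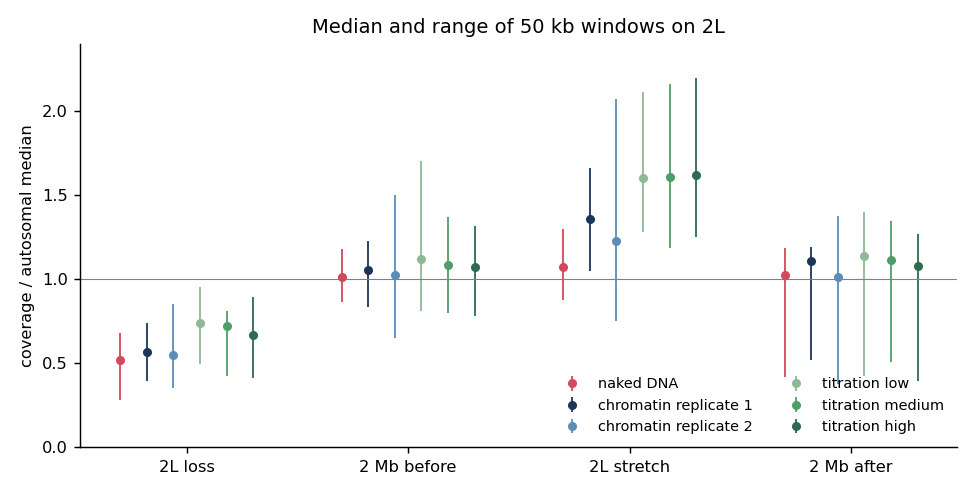
Coverage over the autosomal median of the library in 50 kb windows of 4 stretches of 2L, as the median (point) and the lowest to highest window (line) for each of the 6 libraries. In the 2L stretch naked DNA stands at 1.07, the chromatin replicates at 1.36 and 1.23 and the 3 titration libraries near 1.6, while the neighbouring 2 Mb on each side lie between 1.01 and 1.14.

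Pile-ups of naked DNA were few and mostly 1-stranded. Bins of 1 kb with over 20 times the naked median of 20 fragments, a rule set after the data were seen, numbered 7 at 6 sites and held 8636 fragments, 0.348% of naked arm fragments. The site 4:1042001-1043000 had 1284 RPM in naked DNA, against 79.1 and 76.8 in chromatin replicates 1 and 2 and 113 to 263 in the titration. The site 2L:626001-628000 had 888 RPM in naked DNA, against 67.5 in chromatin replicate 1, 1 fragment in all in replicate 2 and 7.51 to 41.9 RPM in the titration. The sites 3R:27781001-27782000 and 4:1166001-1167000 had 295 and 196 RPM in naked DNA, against at most 32.9 in either chromatin replicate and at most 55.8 in the titration. At these 4 sites naked DNA was above all 5 chromatin libraries, as a choice by naked DNA favours. By the same rule replicate 1 had 3 such bins of its own, of which 1 was also past it in naked DNA. At X:21834001-21835000 naked DNA had 433, against 158 and 219 in chromatin and 332 to 627 in the titration, and at 3L:23605001-23606000 it had 383, against 34.7 and 32.9 in chromatin and 225 to 606 in the titration, so at both sites at least 1 titration library was above naked DNA.

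Of all naked fragments on the arms in bins of at least 10, 50.05% were on the plus strand. At the 4 sites where naked DNA was above all chromatin, the plus strand had 2.76% of the naked fragments at 4:1042001-1043000, 2.09% at 2L:626001-628000, 5.18% at 3R:27781001-27782000 and 1.85% at 4:1166001-1167000. Chromatin replicate 1 had 28 of 41 fragments on the plus strand at the first and 34 of 35 at the second, where they were also shorter, with a median of 140 bp, against 804.5 bp in naked DNA. The titration libraries had few fragments at that second site, and there 0 of 9, 1 of 15 and 0 of 2 were on the plus strand in the low, medium and high digests, the same side as naked DNA. At 4:1042001-1043000 42.4%, 68.8% and 62.9% of titration fragments were on the plus strand in the low, medium and high digests, and at 3R:27781001-27782000 6 of 13, 11 of 20 and 1 of 8 were. Of the naked intervals at these 4 sites 96.5% to 99.9% were distinct. The other sites were less uneven, with 75.8% on the plus strand in naked DNA at the X site, against 81.7% in chromatin replicate 1, and 46.7% at the 3L site, against 38.9%.

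**Figure D5:**
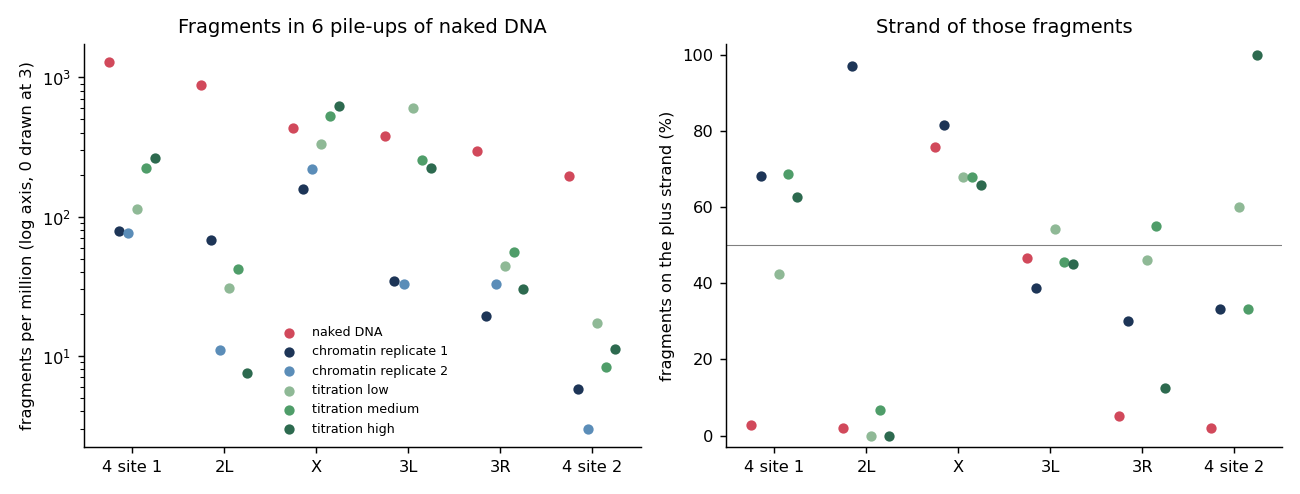
RPM on a log axis (0 is drawn at 3) (left) and the percent of fragments on the plus strand (right) at the 6 pile-ups of naked DNA, for each library (chromatin replicate 2 has no strands). Naked DNA is highest at both sites on chromosome 4, on 2L and on 3R, with 1.85% to 5.18% of its fragments on the plus strand there.

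In 10 kb windows the calls were not taken as reliable. Of 12012 windows 40 (0.333%) passed limma with voom weights at an adjusted p under 0.05, of which 11 (0.0916%) were higher and 29 (0.241%) lower in naked DNA, but in simulated counts of the same depth the fit made 267 false calls among 12009 windows, and without crowded bins no window passed (974 had an unadjusted p under 0.05). The simulated spread was set in advance and not fitted to the data, so the number of false calls is a rough guide only. No 10 kb window is named, since none passed without crowded bins. At 10 kb Pearson's r of log2 coverage was 0.866 between naked DNA and chromatin replicate 1 and 0.604 between naked DNA and replicate 2, against 0.568 between the replicates.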

How the data were processed

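The files used are the authors' deposited BED tables of aligned nanopore reads, in dm3 (release 5) coordinates. The submitters' processing notes name Bowtie 1.1.1, bedtools and dm3 without a role, and the nanopore aligner is not given in the sources used here. Each row is an interval (other unit: a start and an end), and the deposited score column reaches 40 in all libraries but chromatin replicate 2, whose table has no score or strand. What the authors filtered or removed before deposit is not stated per the labels. The titration tables were matched to their samples by table name.

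Fragments were counted by midpoint in 10 kb and 50 kb windows with at least 30 fragments over the 3 libraries, and tested with limma 3.58.1 (voom weights, R 4.3.3, Benjamini-Hochberg adjustment), naked minus chromatin. Other values were computed with Python 3.11.15, numpy 2.4.6, pandas 2.3.3 and scipy 1.17.1. The broad trend of a length histogram is its Gaussian-smoothed version at SD 100 bp, and the ratio to it was taken after smoothing at SD 10 bp. End coincidence used distinct intervals on 2L, 2R, 3L, 3R, 4 and X. Crowded bins were set by left ends for cut positions (679 bins) and by midpoints for coverage (622 bins), at over 5 times the median of any library but replicate 2, too shallow for it. For the log2 differences of named windows taken from the RPM, and for the split of the lower windows, they were set by midpoints in naked DNA and replicate 1 only. The scripts were tested on simulated data. In 50 kb windows the simulated fit made 9 false calls among 2404 windows.

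Windows named are up to 5 called in each direction with the largest difference and with naked DNA outside the range of the chromatin replicates; 2 further called windows are named because they complete the count, chosen after their values were seen. Positions named are the 5 with the most naked ends, at most 1 per 10 kb. The members, lists and tests were chosen with earlier results of these data known. Alternatives were other normalization, filters, fragment positions, scores, distances, depths, left-out replicates and the titration as chromatin. Leaving out crowded bins, the ladder from 450 bp, the autosomal arms alone and the spacing swing were added after seeing the data. Intervals cover counting error at most, since reads without molecular identifiers are not independent molecules. No sequence or gene annotation was used, because a dm3 genome was not used here.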

Additional observations from a re-analysis of the deposited data

Results flagged for a closer look

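Beyond the pile-ups, a crowded bin on X and the pairing of ends within a library, strand was not used. Of the 2489 naked 1 kb bins with at least 50 fragments, 32 had at most 10% or at least 90% on the plus strand. In chromatin replicate 1 3 of 8 such bins did, and in the low, medium and high digests 0 of 2, 0 of 3 and 0 of 3. Of the 32, 17 bins had under 5% of naked fragments at the highest score of 40. All 17 were mostly on the plus strand, and the summed titration libraries, with at least 10 fragments in each of the 17, leaned the same way in all 17. The other 15 bins held 7909 naked fragments, 5 bins mostly plus and 10 mostly minus. The titration had at least 10 fragments in 5 of these 15 and was on the same side of even in 3 of the 5, with naked DNA at 1.23%, 5.18% and 6.22% on the plus strand, against 5.56%, 43.9% and 46.7% in the titration. Of the 5, 1 had at most 20% on the plus strand in the titration. In X:13837001-13838000 naked DNA had 9 of 139 fragments on the plus strand, against 1 of 35 in chromatin replicate 1. In X:18501001-18502000 naked DNA had 123 of 127 on the plus strand, against 197 of 197 in chromatin replicate 1. The cause of the uneven strands was not tested.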

How the results depend on the processing

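No paired analysis was possible because naked DNA has 1 library, so the groups share fewer than 2 replicate numbers. Of 227 values computed under other settings, 156 kept their size or call. Single named windows made up 144 of the 227 and 100 of the 156. A value taken per library kept its size if it moved by less than the SD of the 2 chromatin replicates, a wide limit where these differ. The ladder departure over 250 to 1000 bp, -10.9 points from chromatin with an SD of 6.90, is a case. It was -5.25 points with the titration as chromatin and -6.06 without replicate 1, and both counted as kept. A count of windows was compared by its size alone. Its directions could differ. All 5 libraries without crowded bins called 13 windows of 50 kb, 0 higher and 13 lower in naked DNA, against 5 and 7 as reported, and without replicate 2 5 windows were past 1.5-fold higher and 7 lower, against 7 and 4. With the titration as chromatin, the differences were -62 bp in median length, 5.30 percentage points in fragments up to 250 bp, -0.0828 in mitochondrial percent and 0.0254 in the X ratio, the coincidence was 1.57 (1.45 as reported, the mean over the chromatin replicates), the spacing swing difference was -1.32 points against -4.04, and 155 windows of 50 kb and 146 of 10 kb were called. With scores of at least 20 the mitochondrial difference was -0.0504, the shared variance 83.4%, and the calls 477 at 50 kb and 21 at 10 kb; replicate 2 has no scores and was not filtered. With that filter the shared variance was 95.5% in replicate 1, against 94.1% without it. In replicate 2, itself not filtered, it was 71.3% against filtered naked DNA and 86.8% against unfiltered naked DNA. The shared variance as reported, 90.4%, was 80.7% on autosomal arms alone. Coincidence was 1.34 within 2 bp and 1.30 without crowded bins. The ratio at recurrent positions, 2.50, was 3.30 for at least 10 ends, 5.57 in thinned naked DNA and 3.48 without crowded bins. At 50 kb, limma-trend called 2 windows, both higher in naked DNA, the fit without crowded bins 4 and all 5 chromatin libraries 37. At 10 kb, limma-trend called 4 windows, the fit without crowded bins 0 and all 5 libraries without them 15. Windows past 1.5-fold numbered 1131 at 10 kb and 11 at 50 kb, and with 1 replicate left out 581 to 3731 and 12 to 131, the larger without replicate 1. Direction turned in 5 named windows: 3R:950001-1000000 (0.33 against the titration, 0.049 against all 5), X:18500001-18550000 (0.63 and 0.054), 3R:27750001-27800000 (-0.31 without crowded bins, -0.22 against all 5 without them), 4:1000001-1050000 (-0.071) and 4:1150001-1200000 (-0.069), the last pair against all 5 without crowded bins. The cause was not tested except where crowded bins were removed by construction. Depth limits replicate 2 most, and with a single naked library its spread is unknown.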
